A study of Rattus norvegicus with 172 samples.

Results

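The comparison asked what an empty chitosan tube, left for a month in the gap of a transected rat spinal cord, does to gene expression in the cord just caudal to the gap. It rests on 6 of the 172 arrays of the series, taken by their sample titles: 3 of the tube alone arm and 3 of the lesion control arm, both from the caudal segment 30 days after operation. In all injured animals (adult female Wistar rats, 2 months old) the cord was cut through at T7-8 and 5 mm of it was excised. The tube alone arm then had an empty chitosan tube placed in the gap, and the lesion control arm was left without treatment. The sampled tissue was the 5 mm segment next to the gap, with its dura and meninges. Each array held RNA pooled from 4 animals, so the spread between arrays is a spread between pools. Beside these stand 3 arrays of normal cord, which was taken at the level of the gap and not from the caudal segment, and 3 arrays of another arm on the same day and segment, whose tube held NT-3-chitosan carriers. Whether the rostral and caudal segments of an arm came from the same animals is not stated.

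Below a complete transection the descending axons are cut off from their cell bodies, and their stumps and myelin degenerate slowly. Microglia and invading macrophages clear this debris, astrocytes become reactive, and fibroblasts of the meninges lay down a collagen-rich scar around the gap. Chitosan is a polysaccharide made from chitin that is used as a degradable conduit, and an empty conduit is the usual control for one that carries a growth factor.

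Signals are given as log2 values, and differences as log2 differences of tube alone minus lesion control with a standard error (SE). The SE rests on the spread over all arrays of the fit. A gene was called where limma's adjusted p was under 0.05. Array medians over all probe sets lay between 7.2 and 7.24 on the 6 arrays. Neuronal, myelin and astrocyte RNA was abundant on all 6 of them: Snap25 lay between 13.26 and 13.49, Mbp between 14.57 and 14.67 and Gfap between 14.25 and 14.35. The muscle gene Myl1 was at 4.99 to 6.15, within or below its range in normal cord (5.42 to 6.29). The MHC class I gene RT1-CE10, which is high in some groups of the series and low in others, lay in 1 range here: 10.99, 11.07 and 11.07 in tube alone and 11.04, 11.12 and 11.09 in lesion control, against 6.46 to 6.66 in normal cord.

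The 3 tube alone arrays were less alike than the 3 lesion control arrays. Over genes, the lesion control arrays correlated with each other at 0.9924 to 0.9939. Tube alone replicate 3 correlated at 0.9837 and 0.9818 with its own group's replicates 1 and 2, and at 0.9873 to 0.9914 with the lesion control arrays. It differed by more than 0.5 from the mean of its own group's others in 674 genes, against 312 and 475 for replicates 1 and 2 and 112 to 138 for the lesion control arrays. The 3'-to-5' signal gap of the hexokinase control probe sets was 2.85 on this array and 2.38 to 2.6 on the other 5, while those of GAPDH (-0.16 to -0.05) and beta-actin (0.83 to 1.02) were close on all 6. Their part in the results was not tested, nor was whether this array carries the right label.

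With all arrays weighted equally, almost no single gene differed detectably between the empty tube and no treatment. Of 11479 genes tested, none was called higher in tube alone (0.0%) and 1, Rab23, was called lower (0.00871%). Without adjustment, 471 genes had p under 0.05 in the higher direction (4.1%) and 633 in the lower direction (5.51%), 1104 in all. On all 3 tube alone arrays 960 genes lay above all 3 lesion control arrays (8.36%), and 1171 lay below (10.2%). The median difference over all genes was -0.03, with 42.1% of genes above 0 and 57.1% below. Only 17 genes differed by 2-fold or more in either direction, 9 higher and 8 lower, and none of these was called.

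These zeros come with narrow limits for most genes. The 95% confidence interval of the difference lay wholly within a 2-fold change in either direction for 11217 genes (97.7%), and within 0.5 log2 for 8732 genes (76.1%). The median SE was 0.12. The median absolute difference between the arms was 0.107, against 0.303 between lesion control and normal cord and 0.313 between tube alone and normal cord. The count nevertheless depends on single arrays: without tube alone replicate 3, 59 genes were called higher and 60 lower, and with array weights, which gave this array the lowest weight of the 6, 416 and 645 were. Without tube alone replicate 1 or lesion control replicate 1 the higher count was 2.

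**Figure D1:**
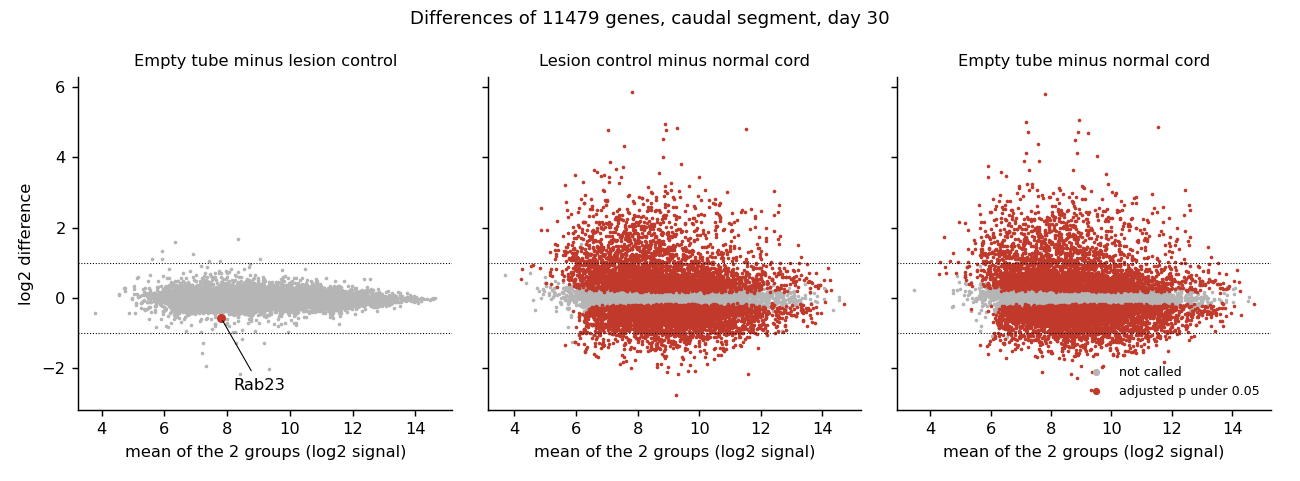
Log2 difference (vertical axis) against the mean log2 signal of both groups (horizontal axis) for each tested gene, in tube alone minus lesion control and in each arm minus normal cord, with called genes in red and dotted lines at a 2-fold change. The arms differ from normal cord by up to more than 5 log2 units, while their own difference stays within the dotted lines for all but 17 of 11479 genes and Rab23 is the called one.

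Rab23, a small GTPase that acts as a negative regulator of Hedgehog signalling, had signals of 7.65, 7.29 and 7.63 in tube alone and 7.85, 8.21 and 8.18 in lesion control. All 3 tube alone arrays were below all 3 lesion control arrays. The difference was -0.56 ± 0.10 (SE, n = 3 and 3; adjusted p = 0.0246, limma). Normal cord had 7.84, 8.00 and 7.79, and the NT-3 tube arm 7.78, 7.92 and 7.63. Against normal cord, tube alone was lower by a called difference (-0.35, adjusted p = 0.0033) and lesion control stood 0.20 above it (adjusted p = 0.0922). The lesion control mean of 8.08 was the highest of all caudal groups: the other 20, of 3 arrays each, had means between 7.36 and 7.79.

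The Rab23 difference was called on day 30 alone of the 7 caudal days. On the other 6 days the caudal difference lay between -0.13 on day 10 and 0.15 on day 20, with adjusted p of 0.53 or more. Rostral to the gap on day 30 it was -0.30 ± 0.12 (adjusted p = 0.812, limma). Rab23 was named for its call on day 30, and calls on single days do not test the days against each other. The direct tests of the day 30 difference against caudal day 20 and against the rostral segment called no gene. The test against caudal day 60 called Rab23, with the limits given below. A dimmer probe set of the gene had 6.65 in tube alone and 6.60 in lesion control, a difference of 0.05 in the other direction. The call was lost without tube alone replicate 2 (-0.44, adjusted p = 0.784), without lesion control replicate 2 (-0.49, adjusted p = 0.503) and without lesion control replicate 3 (-0.51, adjusted p = 0.255). It was also lost with only the 6 arrays in the fit (adjusted p = 0.304, limma). Adding the replicate number as a block to that smaller fit gave an adjusted p of 0.401. With the mean of the gene's probe sets the call was lost too (-0.25, adjusted p = 0.283).

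The 6 genes with the smallest p in the higher direction did not pass the threshold. Siglec5, a sialic acid-binding receptor of myeloid cells, had 7.39, 7.77 and 6.20 in tube alone and 5.48, 5.74 and 5.37 in lesion control, a difference of 1.59 ± 0.33 (adjusted p = 0.066). The groups did not overlap, but tube alone replicate 3 lay more than 1 unit below the other tube alone arrays. Tube alone was at the level of normal cord (7.42, 6.46 and 7.28), and lesion control and the NT-3 tube (5.51, 5.85 and 5.79) were low. The rostral segment on day 30 had the same order: 6.76, 7.78 and 6.01 in tube alone, 5.39, 5.47 and 5.59 in lesion control, and 5.55, 5.64 and 5.30 in the NT-3 tube, with a rostral difference of 1.37 ± 0.38 (adjusted p = 0.495). On caudal day 20 Siglec5 was at 8.27 to 8.45 in tube alone and 8.25 to 8.42 in lesion control, and on day 1 it was called lower in tube alone (-2.58, adjusted p = 3.91e-07).

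Inmt, an N-methyltransferase of indoleamines and other amines, had 9.21, 9.07 and 9.30 in tube alone and 8.62, 7.97 and 8.12 in lesion control. The difference of 0.96 ± 0.21 missed the threshold (adjusted p = 0.0752). The groups did not overlap, and both lay above normal cord (6.90, 7.10 and 6.97) by called differences of 2.20 and 1.25. The same gene was called higher in tube alone on caudal day 20 (1.28 ± 0.21, adjusted p = 0.000973) and on day 60 (1.35 ± 0.21, adjusted p = 0.000199). On days 1, 3, 10 and 90 its difference was between -0.30 and 0.25 and was not called. The tests of day 30 against day 20 (adjusted p = 0.912) and against day 60 (adjusted p = 0.441) did not call Inmt.

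**Figure D2:**
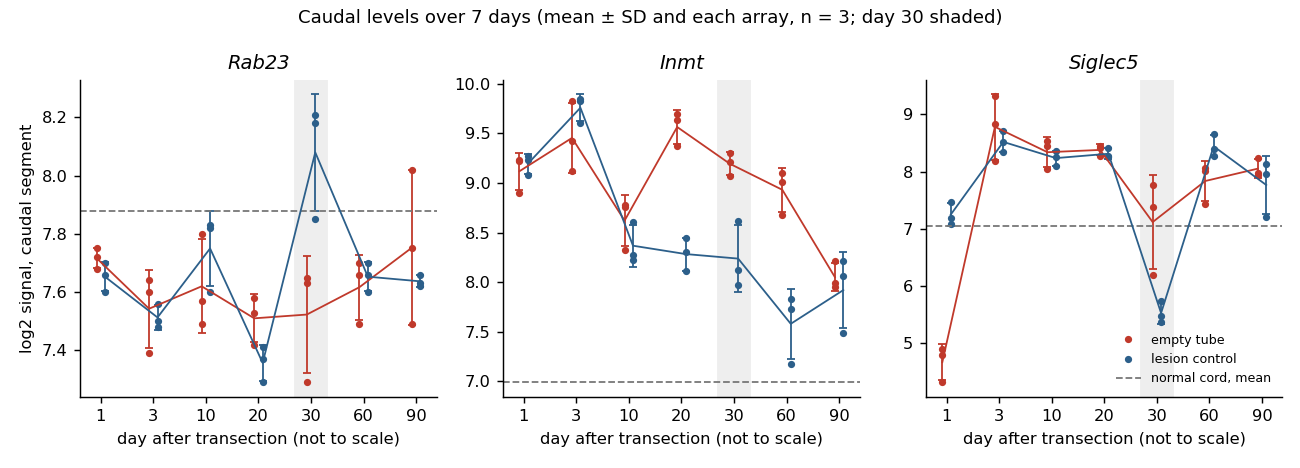
Log2 signal in the caudal segment of Rab23, Inmt and Siglec5 on each of 7 days in tube alone (red) and lesion control (blue), with each array as a point, lines through the means, error bars of 1 SD (n = 3) and the normal cord mean dashed. Rab23 of lesion control is at its highest mean, 8.08, on day 30, Inmt of tube alone lies above lesion control on days 20, 30 and 60, and Siglec5 of lesion control dips to 5.53 on day 30.

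Of the other genes near the threshold, Ttk, a kinase of the mitotic spindle checkpoint, had 7.29, 8.32 and 7.82 in tube alone and 7.27, 6.96 and 6.56 in lesion control. The difference was 0.88 ± 0.19 (adjusted p = 0.0752), and the lowest tube alone array was only 0.02 above the highest lesion control array. A second Ttk probe set, at 3.41 and 3.47, was near the bottom of the scale and differed by -0.05. Slc16a7, a monocarboxylate transporter, had 8.44, 8.24 and 7.73 against 7.31, 7.53 and 7.25 (0.77 ± 0.20, adjusted p = 0.238), with normal cord lower than both at 5.93 to 6.13. Igsf10 (0.58 ± 0.14, adjusted p = 0.209) and Vps13a (0.42 ± 0.11, adjusted p = 0.238), a lipid transfer protein of membrane contact sites, completed the higher group. In all 6 genes every tube alone array was above every lesion control array, as in 8.36% of all genes. The choice by smallest p favours such genes.

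In the lower direction 5 genes followed Rab23 without passing. Hrk, a pro-apoptotic BH3-only protein, had 6.53, 6.56 and 6.59 in tube alone and 6.96, 7.10 and 6.87 in lesion control (-0.42 ± 0.09, adjusted p = 0.0752). Here normal cord (6.83 to 6.98) and the NT-3 tube (6.78 to 6.95) were near the lesion control level. Ap5s1, a subunit of the AP-5 adaptor complex, had 6.91, 6.68 and 6.97 against 7.2, 7.43 and 7.08 (-0.38 ± 0.08, adjusted p = 0.0752). Prrg3 (-0.53 ± 0.13, adjusted p = 0.181), Cmtm8 (-0.47 ± 0.12, adjusted p = 0.238) and Sh2d5 (-0.79 ± 0.20, adjusted p = 0.238) completed the group. The groups did not overlap in any of the 5, which the choice by smallest p also favours. Tube alone lay below lesion control on every array in 10.2% of all genes. The dimmer second probe sets of Prrg3 and Cmtm8 differed by -0.01 and 0.17.

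**Figure D3:**
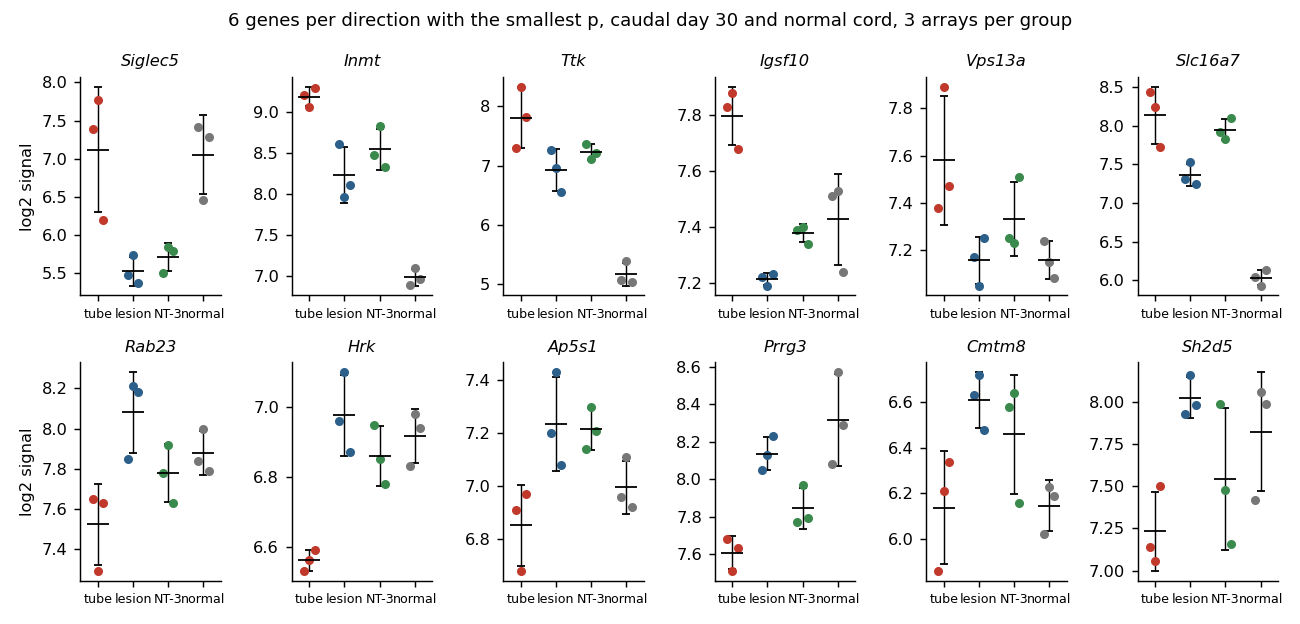
Log2 signal of the 6 genes with the smallest p in each direction on each array of tube alone, lesion control, NT-3 tube and normal cord (3 arrays each), with the mean as a bar and 1 SD as error bars; vertical axes do not start at 0 and differ between genes. Tube alone and lesion control do not overlap in any of the 12 genes, which the choice by p favours, and only Rab23 passed the threshold.

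Both arms stood far from normal cord. In lesion control 3260 genes were called higher (28.4%) and 3046 lower (26.5%) than in normal cord; in tube alone 3095 were higher (27.0%) and 3243 lower (28.3%). These shares of all genes are the background for the lists' counts against normal cord that follow. Both sets use the same 3 normal cord arrays, so they are given side by side and their likeness is no separate result. A difference of 2-fold or more from normal cord was reached by 1291 genes in lesion control and 1326 in tube alone. RT1-CE10, which is high in some groups of the series and low in others, was also higher in both arms than in normal cord. The part of such a group difference in the values against normal cord, here and in the gene lists, was not tested. In bulk tissue fewer cells of a type and less RNA per cell cannot be told apart, here and in the gene lists that follow. None of the 44 lists held a called member between the arms. With arrays weighted by their estimated quality 27 lists held one (4 lower members each of the neutrophil, pericyte and Hox lists among them), and without tube alone replicate 3, 6 lists did. The sign of the median between the arms turned in 19 lists over the alternative settings.

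Genes of the debris-clearing cells were far above normal cord in both arms. All 20 tested microglia and macrophage genes were called above normal cord in each arm, by a median of 2.45 in lesion control and 2.56 in tube alone. Between the arms their median difference was 0.06, with 12 of 20 above 0 (42.1% of all genes were). Of the 20, 1 had an unadjusted p under 0.05, the microglial membrane protein Tmem119 (-0.35 ± 0.15). The lysosomal marker Cd68 had 11.30, 11.32 and 11.16 in tube alone and 11.35, 11.16 and 11.37 in lesion control, against 6.50 to 6.56 in normal cord. Its interval of the difference, -0.63 to 0.56, included 0. The largest differences were those of the haptoglobin-haemoglobin scavenger receptor Cd163 (0.49 ± 0.33, adjusted p = 0.626) and the mannose receptor Mrc1 (0.46 ± 0.31, adjusted p = 0.626).

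Lysosome and lipid handling genes were called above normal cord in 19 of 19 in both arms, and their median difference between the arms was 0.04. Abca1, the cholesterol exporter, had 12.28, 12.14 and 12.09 in tube alone and 11.95, 11.75 and 11.76 in lesion control (0.35 ± 0.20, adjusted p = 0.568), and Apoc1 had -0.48 ± 0.42. Of 10 complement genes 9 were above normal cord in each arm. C3, the central complement component, was at 11.16, 11.00 and 10.93 against 10.60, 10.85 and 10.61 (0.34 ± 0.25, adjusted p = 0.65). MHC class II presentation had a median difference of 0.07 over 8 genes, led by RT1-Da (0.26 ± 0.28, adjusted p = 0.77). The list of the chitin and foreign body response, which includes chitin-binding and multinucleated giant cell genes, had a median of 0.02 over 12 genes, and 9 of them were above normal cord in each arm.

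The neutrophil list had the lowest median between the arms, -0.43 over 9 genes, all of which were below 0, while over all genes 57.1% were below 0. Neutrophils are short-lived granulocytes, and S100a8 and S100a9 form the calprotectin they carry in bulk. S100a8 had 6.96, 6.99 and 7.99 in tube alone and 8.81, 9.64 and 9.99 in lesion control, with 7.51, 6.64 and 8.22 in normal cord. The arms did not overlap, and tube alone was at the normal cord level. The difference of -2.17 ± 0.74 was not called (adjusted p = 0.366), nor was that of S100a9 (-2.03 ± 0.73, adjusted p = 0.386).

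The granule genes Camp (-0.93 ± 0.36, adjusted p = 0.438) and Np4 (-1.29 ± 0.44, adjusted p = 0.372) also had an unadjusted p under 0.05, and Cxcr2, the chemokine receptor of neutrophils, had -0.01 ± 0.12 at a low signal of 5.50 to 5.86. Of the 9 genes 7 were called above normal cord in lesion control (28.4% of all genes were) and 1 in tube alone (27.0% of all genes). The change of that count between the arms was not tested. The S100a8 difference had no fixed direction over days: it was -1.06 on day 20, -0.45 on day 90, and 1.05 to 1.2 on days 3, 10 and 60, none of them called. Neutrophil RNA can also come with blood in the vessels: 4 tested blood genes had a median of -0.235 between the arms (-0.437 to 0.063 over the alternative settings), and the haemoglobin-stabilising Ahsp had 6.50, 6.90 and 7.19 against 6.82, 7.22 and 7.74. Their part in the neutrophil values was not tested.

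Interferon response genes were raised in both arms, 19 of 19 in lesion control and 17 of 19 in tube alone. All 19 were lower in tube alone (median -0.27), and 3 of them had an unadjusted p under 0.05. Over all genes 57.1% were below 0 and 5.51% had such a p in this direction. One array carried much of this. Ifit3, an interferon-induced antiviral protein, had 8.2, 7.79 and 10.23 in lesion control and 7.64, 7.90 and 7.82 in tube alone (-0.95 ± 0.41, adjusted p = 0.475). Lesion control replicate 3 was the highest of the 6 arrays also for Oas1b (7.30), Isg15 (11.72) and Mx1 (10.65). Without that array the list's median was -0.105, without lesion control replicate 2 it was -0.66, and without tube alone replicate 2 it was -0.41.

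Chemokines and cytokines, the signals that draw such cells, differed in both directions, with a median of -0.05 over 26 genes. Ccl2, which attracts monocytes, had 9.45, 8.98 and 9.22 in tube alone and 8.41, 8.71 and 8.53 in lesion control (0.67 ± 0.42, adjusted p = 0.606). Ccl5, a T cell attractant, had 7.33, 7.79 and 7.79 against 8.09, 8.56 and 8.35 (-0.70 ± 0.29, adjusted p = 0.463). Neither pair of groups overlapped. The T cell receptor subunit Cd3g (-0.52 ± 0.25, adjusted p = 0.509) and the co-receptor chain Cd8b (-0.34 ± 0.29, adjusted p = 0.697) were lower without being called, in a list of T and B lymphocytes of which 6 of 13 matched genes were bright enough to test (median -0.26). MHC class I genes had a median of -0.13 over 10 genes, with RT1-S3 at -0.52 ± 0.28 (adjusted p = 0.554) and RT1-T24-4 at -0.53 ± 0.36 (adjusted p = 0.627).

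No glial gene was called between the arms; with array weights 3 reactive astrocyte and 3 oligodendrocyte precursor genes were. Reactive astrocyte genes were called above normal cord in 13 of 15 in each arm (medians 1.61 in lesion control and 1.60 in tube alone) and had a median difference of -0.03. Lcn2, an iron-siderophore carrier induced in reactive astrocytes, had 7.87, 7.70 and 8.45 against 8.49, 8.97 and 9.32 (-0.92 ± 0.44, adjusted p = 0.509). Stat3, the transcription factor that drives astrocyte reactivity, had 10.64, 10.58 and 8.74 against 9.67, 9.21 and 9.50; tube alone replicate 3 was the lowest of the 6 arrays and the other two tube alone arrays were the highest (0.53 ± 0.32, adjusted p = 0.604). Homeostatic astrocyte genes had a median of -0.04 over 13 genes. The glutamate transporter Slc1a3 was at 10.74, 10.72 and 10.85 against 10.66, 10.54 and 10.52 (0.20 ± 0.09, adjusted p = 0.478), and the water channel Aqp4 differed by 0.16 ± 0.14.

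Central myelin genes were called below normal cord in 13 of 16 in each arm, with medians of -0.61 in lesion control and -0.70 in tube alone, and a median of -0.08 between the arms. Mag, the myelin-associated glycoprotein, had -0.23 ± 0.14 (adjusted p = 0.614) and Ugt8, the enzyme of galactocerebroside synthesis, 0.21 ± 0.22. Among oligodendrocyte precursor genes (median -0.09 over 9) Ptprz1, a receptor phosphatase with a chondroitin sulfate proteoglycan ectodomain, had 11.19, 11.22 and 10.79 against 10.72, 10.62 and 10.58 (0.43 ± 0.12, adjusted p = 0.291). The lineage factor Sox10 had -0.32 ± 0.17 (adjusted p = 0.544). Schwann cell genes, which mark myelinating cells of the roots or cells that have entered the cord, were called above normal cord in 7 of 9 in each arm and had a median of -0.04 between the arms. Prx, a protein of peripheral myelin, had 9.21, 8.81 and 8.95 against 9.58, 9.44 and 9.54 (-0.53 ± 0.26, adjusted p = 0.514).

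Cholesterol synthesis genes, which myelin-forming glia use heavily, were called below normal cord in 17 of 18 in lesion control and 18 of 18 in tube alone (medians -1.25 and -1.37). Between the arms their median was -0.08. Srebf2, the transcription factor of the pathway, had 9.48, 9.62 and 9.99 against 10.05, 10.10 and 10.02 (-0.36 ± 0.13, adjusted p = 0.379). The sterol demethylase Cyp51 went the other way (0.32 ± 0.18, adjusted p = 0.577), and 7 of the 18 genes were above 0 (42.1% of all genes were).

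Neuronal genes were below normal cord in both arms. Pan-neuronal genes were called below normal cord in 18 of 19 in lesion control and 19 of 19 in tube alone, with a median of -0.80 in both. Between the arms the median was -0.08. Tubb3, the neuronal beta-tubulin, had 11.45, 11.16 and 11.44 against 11.73, 11.82 and 11.81 (-0.44 ± 0.13, adjusted p = 0.31), and Uchl1, a neuronal deubiquitinase, had 11.56, 11.55 and 11.76 against 11.95, 12.04 and 12.07 (-0.40 ± 0.18, adjusted p = 0.482). Neither overlapped. The neuronal splicing factor Rbfox3 was uneven within tube alone (8.89, 9.03 and 6.98, against 8.39, 8.07 and 8.24; difference 0.07 ± 0.37).

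Synaptic genes (16 tested) were called below normal cord in 14 in lesion control and 15 in tube alone, and voltage-gated channels in 12 of 13 in each. Their medians between the arms were 0.13 and 0.07, and both turned sign over the alternative settings (-0.04 to 0.262 and -0.06 to 0.125). Examples were the vesicular GABA transporter Slc32a1 (-0.36 ± 0.23, adjusted p = 0.623), the AMPA receptor subunit Gria2 (0.33 ± 0.24, adjusted p = 0.649), the sodium channel Scn1a (0.41 ± 0.22, adjusted p = 0.542) and the calcium channel subunit Cacna2d1 (0.35 ± 0.15, adjusted p = 0.472). Slc18a3, the vesicular acetylcholine transporter of motor neurons, had 7.90, 7.93 and 7.98 against 8.10, 8.60 and 8.46 (-0.45 ± 0.14, adjusted p = 0.327). Serotonin and peptide receptors, which in the caudal cord serve inputs that transection removes, had a median of -0.005 over 8 genes, with Htr2c at 0.23 ± 0.22 (adjusted p = 0.731) and Oprk1 at -0.21 ± 0.13 (adjusted p = 0.604). The interval of every tested gene of the synaptic, channel and receptor lists lay within a 2-fold change, as did those of 97.7% of all genes.

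Sensory ganglion genes separated arrays and not arms. Avil, which marks sensory neurons, had 9.88, 7.44 and 7.62 in tube alone and 9.96, 8.07 and 7.64 in lesion control, so that replicate 1 was high in both arms. Calca, which encodes the sensory peptide CGRP, had 10.96, 9.28 and 8.94 against 11.15, 9.61 and 9.91, again highest on replicate 1 (-0.50 ± 0.62, adjusted p = 0.801). The list's median over its 4 tested genes was 1.54 and 1.84 above normal cord on these 2 arrays and -0.03 to 0.33 on the other 4. Neuropeptides had a median of -0.07 over 14 genes, with Npy at -0.48 ± 0.37 (adjusted p = 0.666) and Calcb at -0.43 ± 0.31 (adjusted p = 0.638).

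The tested genes among the neurotrophins and their receptors, the pathway that the loaded tube of the series is meant to feed, did not differ detectably. Of 15 matched genes 10 were bright enough to test, and the gene of NT-3 itself was not among these 10. None of the 10 was called (1 of all 11479 genes was), and none had an unadjusted p under 0.05 (9.62% of all genes did). All 10 intervals lay within a 2-fold change, as did those of 97.7% of all genes. Among ligands, Bdnf had 6.20, 5.94 and 5.80 in tube alone and 6.17, 6.05 and 6.11 in lesion control (-0.13 ± 0.18, adjusted p = 0.821), with normal cord above both at 6.70 to 6.97. Cntf, a glial survival factor, differed by -0.12 ± 0.14. Among receptors, the BDNF receptor Ntrk2 differed by -0.05 ± 0.12 and the NT-3 receptor Ntrk3 by 0.03 ± 0.24. Ntrk3 was at 5.75 on tube alone replicate 3 and at 7.26 and 7.15 on the others, against 6.55 to 6.93 in lesion control.

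The shared low-affinity receptor Ngfr differed by -0.11 ± 0.31 and its partner Sort1, a sorting receptor, by -0.02 ± 0.11. Of the GDNF family receptors, Gfra1 was at 0.13 ± 0.09, Gfra2 at -0.10 ± 0.09 and their signalling partner Ret at 0.11 ± 0.13. Cntfr, the CNTF receptor, differed by -0.02 ± 0.10. The directions of Ntrk2, Ntrk3, Ngfr, Sort1, Gfra2, Ret and Cntfr turned under at least 1 alternative setting or left-out array.

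Scar and vessel genes gave list medians of opposite sign. Fibroblast and fibrillar matrix genes were called above normal cord in 21 of 23 in lesion control and 22 of 23 in tube alone. Between the arms 20 of 23 were higher in tube alone, with a median difference of 0.27, while 42.1% of all genes were above 0. Postn, a matricellular protein of scar fibroblasts, had 9.19, 8.04 and 9.63 against 8.58, 8.22 and 7.55 (0.84 ± 0.45, adjusted p = 0.554). Col6a3, a collagen VI chain, had 10.23, 9.55 and 10.44 against 9.73, 9.47 and 9.21 (0.60 ± 0.34, adjusted p = 0.577). Fibronectin, Fn1, was the one member with an unadjusted p under 0.05 (0.56 ± 0.27, adjusted p = 0.511). Tube alone replicate 2 overlapped lesion control in the first 2 genes, and without it the list's median was 0.47; without tube alone replicate 1 it was 0.16.

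The meningeal and arachnoid list had a median of -0.05 over 13 genes, all 13 called above normal cord in both arms, with Ogn, a small leucine-rich proteoglycan, at 0.49 ± 0.25 (adjusted p = 0.526) and Igf2, a growth factor of the meninges, at 0.34 ± 0.31 (adjusted p = 0.717). Of the metalloproteinases, Mmp3 was at 7.80 on tube alone replicate 1 and at 5.01 to 5.38 on the other 5 arrays (1.11 ± 0.44, adjusted p = 0.439). Mmp12, the macrophage elastase, had 10.48, 8.59 and 9.73 against 8.53, 9.02 and 7.89 (1.12 ± 0.65, adjusted p = 0.589). Among chondroitin proteoglycan and guidance genes (median 0.01 over 19), tenascin-C, Tnc, had 7.81, 7.73 and 8.05 against 7.42, 7.39 and 7.05 (0.58 ± 0.35, adjusted p = 0.603). The ephrin receptor Epha4 had 9.41, 9.49 and 8.40 against 8.57, 8.56 and 8.57 (0.53 ± 0.20, adjusted p = 0.398); again tube alone replicate 3 was on the lesion control side.

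Pericyte and smooth muscle genes, which mark the cells that wrap small vessels, were lower in tube alone in 10 of 10, with a median of -0.33 and 5 with an unadjusted p under 0.05, while over all genes 5.51% had such a p in this direction. Acta2, smooth muscle actin, had 7.11, 6.99 and 7.41 against 7.67, 7.87 and 7.80, with normal cord at 6.66 to 6.85 (-0.61 ± 0.17, adjusted p = 0.265). Rgs5, a regulator of G protein signalling that marks pericytes, had 8.45, 8.65 and 8.46 against 8.86, 9.10 and 9.11 (-0.50 ± 0.13, adjusted p = 0.238). The arms did not overlap in either. Rgs5 was also lower in tube alone on caudal day 3, by a called difference (-0.52 ± 0.13, adjusted p = 0.0158), and its differences on days 10, 20 and 60 were -0.36, -0.46 and -0.28 without a call. On days 1 and 90 they were 0.32 and 0.16.

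Endothelial and angiogenic genes had a median of -0.15 over 20, with Egfl7, a vascular matrix protein, at 8.44, 8.33 and 8.39 against 8.76, 8.78 and 8.82 (-0.40 ± 0.11, adjusted p = 0.265) and Ly6c at -0.39 ± 0.27. In contrast, the endothelial angiopoietin receptor Tek stood at 0.21 ± 0.13 (adjusted p = 0.604). Ependymal and cilia genes were below 0 in 7 of 7 (median -0.10), while over all genes 57.1% were. They were led by the dynein light chain Dynlrb2 (-0.45 ± 0.28, adjusted p = 0.604) and Tppp3 (-0.29 ± 0.15, adjusted p = 0.534).

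**Figure D4:**
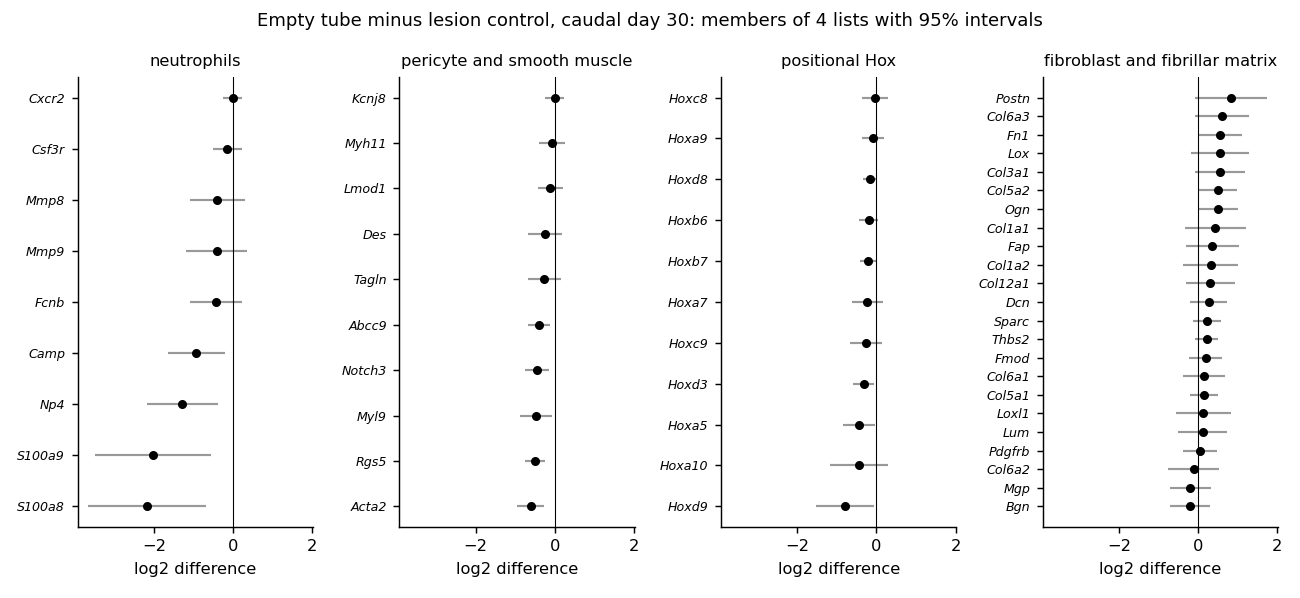
Log2 difference of tube alone minus lesion control on caudal day 30 for each tested member of the neutrophil, pericyte and smooth muscle, positional Hox and fibroblast and fibrillar matrix lists, with 95% confidence intervals as lines. All members of the first 3 lists lie below 0 and 20 of 23 of the last lie above it, and none of the members was called.

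Positional Hox genes, whose sets record the level along the cord, were lower in tube alone in 11 of 11 (median -0.23), 5 with an unadjusted p under 0.05, while over all genes 57.1% were below 0 and 5.51% had such a p. Hoxd9 had 7.63, 7.58 and 7.74 against 7.87, 8.61 and 8.88 (-0.80 ± 0.36, adjusted p = 0.486), and Hoxa10 had 8.46, 8.74 and 8.54 against 8.66, 9.06 and 9.35 (-0.44 ± 0.36, adjusted p = 0.685). The 3 normal cord arrays spread further than the arms, from 7.62 to 10.47 for Hoxd9. The Hox list's median against normal cord was -0.31 in lesion control and -0.58 in tube alone. Of the 11 members 3 and 9 were called lower, while 26.5% and 28.3% of all genes were. Whether the arms were cut at the same level was not tested.

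The heat shock and oxidative stress list had 10 of 14 genes below 0 and the immediate early list 12 of 16, where 57.1% of all genes were below 0, and none of them was called. The inducible chaperone Hspa1a had 7.59, 7.55 and 7.82 against 8.49, 9.11 and 9.18, and normal cord had 6.97 to 7.51 (-1.27 ± 0.37, adjusted p = 0.291). The arms did not overlap. Rostral to the gap on day 30 the difference was -0.91 ± 0.41 (adjusted p = 0.851), and on caudal days 1 and 3 Hspa1a was called higher in tube alone (1.45 and 1.79, adjusted p = 0.0109 and 0.00319). The small heat shock protein Hspb1 had -0.36 ± 0.19 (adjusted p = 0.542), and the heat shock and oxidative stress list a median of -0.10 over 14 genes. Of the immediate early genes (median -0.09 over 16), the orphan receptor Nr4a1 had 7.79, 7.53 and 8.25 against 8.16, 8.74 and 8.83 (-0.72 ± 0.25, adjusted p = 0.372) and the phosphatase Dusp1 -0.62 ± 0.31 (adjusted p = 0.516).

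Genes linked to axon regeneration had a median of -0.05 over 19. Vgf, a neuropeptide precursor, had 7.95, 8.02 and 9.01 in tube alone and 8.94, 9.12 and 9.04 in lesion control (-0.71 ± 0.29, adjusted p = 0.444), with tube alone replicate 3 on the lesion control side. Growth factors of the TGF-beta and IGF families had a median of -0.01 over 20. The binding protein Igfbp3 was at 11.00 on tube alone replicate 2 and at 9.03 to 9.76 on the other 5 arrays (0.81 ± 0.40, adjusted p = 0.519), and Igfbp4 had -0.38 ± 0.15 (adjusted p = 0.44).

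Cell cycle genes were called above normal cord in 18 of 24 in lesion control and 21 of 24 in tube alone, with a median of 0.04 between the arms; the proliferation marker Mki67 had 7.68, 7.22 and 7.47 against 7.17, 7.22 and 7.0 (0.33 ± 0.25, adjusted p = 0.67), and the spindle motor Kif11 0.32 ± 0.18. Proteasome genes were below 0 in 14 of 14 by a small median of -0.115, while over all genes 57.1% were below 0. The inducible subunit Psmb9 was at -0.37 ± 0.22 (adjusted p = 0.604) and the constitutive Psmb7 at -0.36 ± 0.18 (adjusted p = 0.51). Respiratory chain genes had a median of -0.05 over 14, with Cox5a at 0.51 ± 0.22 (adjusted p = 0.472) and Sdhb at -0.22 ± 0.11 (adjusted p = 0.514). Clock genes had -0.03 over 15, with Bhlhe40 at 0.35 ± 0.17 (adjusted p = 0.515) and Nr1d2 at 0.29 ± 0.15.

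No marker of tissue that could be carried along at dissection was called between the arms. Skeletal muscle genes had a median of -0.24 over 13, with Tcap at -0.29 ± 0.20 and Myl1 at -0.33 ± 0.98. Cartilage and bone genes had a median of -0.30 over 6. Of these, 4 had an unadjusted p under 0.05 in the lower direction (5.51% of all genes). On every array 3 lay below lesion control (10.2% of all genes). The cartilage matrix protein Comp was at -0.53 ± 0.18 (adjusted p = 0.372) and Cytl1 at -0.45 ± 0.19 (adjusted p = 0.472). The signals of both lay between 6.01 and 7.68. In the adipocyte list, of which 3 genes were tested (median 0.14), Cfd, a complement protease also made by macrophages, was at 9.24 to 9.50 against 9.10 to 9.33, and Scd, a fatty acid desaturase also used in myelin lipid synthesis, was at 7.86 to 8.17 against 7.72 to 8.14.

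**Figure D5:**
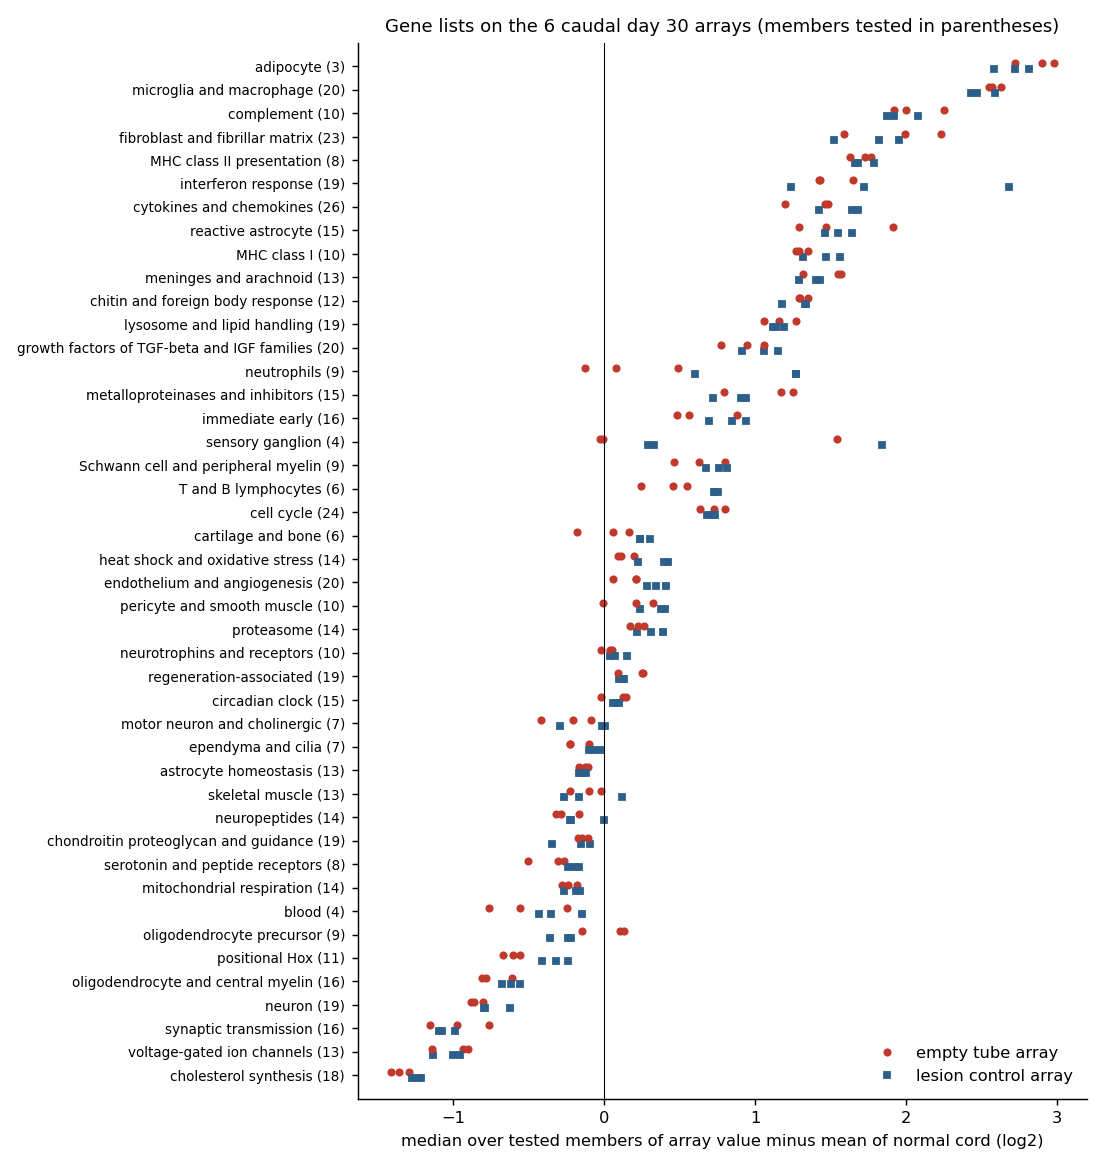
Median over the tested members of each of 44 gene lists of the array's log2 signal minus the normal cord mean (horizontal axis), for the 3 tube alone arrays (circles) and the 3 lesion control arrays (squares), ordered by the lesion control median; the number of tested members stands in parentheses. The order runs from cholesterol synthesis, at -1.21 or lower on all 6 arrays, to the adipocyte list of 3 tested genes, at 2.58 or higher. The adipocyte list is at 2.58 or higher. All circles lie below all squares in 9 lists (neutrophils, Hox, T and B lymphocytes, neuron, serotonin and peptide receptors, cholesterol synthesis, heat shock, endothelium and cartilage). They lie above them in 1, the oligodendrocyte precursor list. The median of that list's differences was still -0.09, because a median of differences is not a difference of medians. Lesion control replicate 3 stands out at 2.68 for the interferon response.

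Whether day 30 differs from other places and times was tested directly. In the rostral segment of the same arms and day none of 11553 genes was called between the arms (0.0%; 649 with an unadjusted p under 0.05, limma). The test of the caudal difference against the rostral one called none of 11590 genes (0.0%), with 177 at an unadjusted p under 0.05. The test against caudal day 20 called none of 11479 (0.0%), with 827 at an unadjusted p under 0.05. On day 20 itself 84 genes were called between the arms (0.732%), so that a count of 84 on one day and 1 on the next is not by itself a difference between days. Without tube alone day 30 replicate 3 the test against day 20 called 23 genes higher and 11 lower.

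The other caudal days gave counts from 1 to 797 in either direction: 797 on day 1 (6.94%), 456 on day 3 (3.97%), 1 on day 10 (0.00871%), 205 on day 60 (1.79%) and 3 on day 90 (0.0261%). The test of day 30 against day 60 called 169 genes with a higher value on day 30 (1.47%) and 86 with a lower one (0.749%). On day 60 RT1-CE10 differed between the arms, at 9.93 to 10.5 in tube alone and 7.24 to 7.40 in lesion control, whereas on day 20 its means were 7.12 and 7.07. The day 1 arms differed in it too (means of 10.73 in tube alone and 6.71 in lesion control). The part of these differences in the counts of days 1 and 60, and in the day 1 calls of Siglec5 and Hspa1a, was not tested. RT1-CE10 was also higher in both arms on day 30 than on day 20. Its part in the test of day 30 against day 20 was not tested either. With only the arrays of the contrast in the fit the test against day 60 called 1 and 2 genes. With the replicate number as a block added to that fit it called 0 and 5. The day 60 counts also moved with single arrays left out, between 1 and 375 in the higher and between 2 and 224 in the lower direction: without tube alone day 60 replicate 3 they were 1 and 2, and without tube alone day 60 replicate 2 they were 375 and 180.

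Rab23 was among the genes called in the test against day 60 (-0.52, adjusted p = 0.0456, limma). It was named for its day 30 difference, which is part of this test. On day 60 its arms had means of 7.62 and 7.65.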

How the data were processed

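RNA was hybridised to 1 type of Affymetrix rat expression array. Per the submitters' processing notes the authors used Affymetrix Expression Console and RMA (versions not given in the sources used here) and deposited log2 values of 31099 probe sets. RMA compresses low signals, and precision is limited by having 3 arrays a group. Probe sets with several gene symbols (436) or no listed one (9831) were left out, which kept 20832. The brightest probe set over 167 cord arrays stood for each of 14218 genes, tested where a group mean reached the 40th percentile (6.55). limma 3.58.1 in R 4.3.3 (lmFit, eBayes, Benjamini-Hochberg) was fitted over 66 arrays, caudal and normal cord; a second fit added rostral arrays. It was tested on simulated data. Python 3.11.15 drew tables and plots.

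The groups and the 44 gene lists (677 of 763 entries matched) were chosen with earlier results of these data known; lists get counts and medians and no test. Genes named were called genes, the smallest p up to 6 a direction, the 2 tested members of each list with the largest absolute difference, and all tested neurotrophin members. RT1-CE10, Snap25, Mbp and Gfap were checks on samples. Tmem119, Cd68, Camp, Np4, Cxcr2, Isg15, Mx1, Rbfox3, Fn1, Tek and some genes of the closing section were named after their values were seen. Alternatives changed the filter, scaling, prior, array weights, replicate block, arrays fitted, probe set rule, fold minimum and arrays left out. The replicate block was fitted to the arrays of the contrast alone.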

Additional observations from a re-analysis of the deposited data

Results flagged for a closer look

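The results here passed limma's test of the difference between day 30 and day 60 in the fit over 66 arrays. That test called 169 genes with a higher and 86 with a lower tube alone minus lesion control difference on day 30. The genes named below were chosen by the size or p of their day 30 difference. That difference is part of this test, so passing in the same direction is partly built in by the choice. Among the named genes the higher values were those of Siglec5 (2.20, adjusted p = 0.0129), Igsf10 (0.77, adjusted p = 0.0321), Slc16a7 (1.11, adjusted p = 0.0321), Slc1a3 (0.47, adjusted p = 0.0323), Ptprz1 (0.84, adjusted p = 0.0129) and Bhlhe40 (0.85, adjusted p = 0.048).

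The lower values were those of Rab23 (-0.52, adjusted p = 0.0456), Ap5s1 (-0.47, adjusted p = 0.0302), Cmtm8 (-0.66, adjusted p = 0.0321), Sh2d5 (-1.0, adjusted p = 0.0496), Lcn2 (-2.56, adjusted p = 0.0264), Vgf (-1.57, adjusted p = 0.0321), Nr4a1 (-1.37, adjusted p = 0.0321), Egfl7 (-0.59, adjusted p = 0.0346) and Acta2 (-0.92, adjusted p = 0.0321). On day 60 the arms also differed in RT1-CE10, with means of 10.28 in tube alone and 7.30 in lesion control, and its part in these values was not tested. Without tube alone day 60 replicate 3 the counts were 1 and 2. With only the arrays of the contrast in the fit they were 1 and 2, and with the replicate block added to that fit 0 and 5.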

How the results depend on the processing

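Between the arms the higher count (0) was 1 with no filter on dim genes, 1 after a second quantile normalization, 3 with arrays centred on the median and 416 with array weights. The lower count (1) was 645 with array weights and 0 with the replicate block, with only the arrays of the contrast, with the mean of all probe sets of a gene, at a 2-fold minimum and, in a setting chosen after seeing the data, without tube alone replicates 1 and 2. Leaving out 1 array gave 0 to 59 and 0 to 60. Array weights gave tube alone replicate 3 the lowest weight of the 6 (0.433), and of the 119 genes called without it 118 were among the 1061 called with weights. Same-numbered arrays of the arms deviated with correlations of 0.29, -0.0761 and -0.167. Those of differently numbered arrays ran from -0.214 to 0.296. With 3 arrays an arm, these values cannot decide whether the numbers pair them.

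Array weights gave 18 and 39 genes against rostral and 292 and 619 against day 20; leaving out 1 array gave 0 to 0 against rostral, and 0 to 23 and 0 to 11 against day 20. Against day 60 the higher count (169) was 101 (quantile), 106 (median), 1693 (weights), 0 (replicate block), 1 (only the arrays of the contrast) and 6 (2-fold), and 1 to 375 without 1 array. The lower count (86) was 131 with no filter, 55 with a stricter filter, 52 (quantile), 53 (median), 2195 (weights), 5 (replicate block), 2 (only those arrays) and 19 (2-fold), and 2 to 224 without 1 array. A 2-fold minimum left 968 higher and 320 lower genes in lesion control against normal cord and 955 and 372 in tube alone. The cause of these shifts was not tested.

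Over the 104 named genes, 862 of 920 values with all arrays kept direction and side of the threshold, 47 newly passed, 3 no longer passed and 8 reversed. These 8 were Calca 0.057, Avil 0.495 and Ngfr 0.212 (weights), Ntrk2 0.144 and Ret -0.072 (mean of probe sets), Sort1 0.013 and Cntfr 0.007 (median) and Cntfr 0.013 (quantile). Without tube alone replicates 1 and 2 these reversed: Cd55 -0.087, RT1-Db1 -0.067, Stat3 -0.72, Ugt8 -0.083, Sox10 0.003, Gria2 -0.497, Cyp51 -0.007, Epha4 -0.167, Ntrk2 0.193, Ntrk3 -0.943, Sort1 0.113, Gfra2 0.06, Alas2 0.643, Myl1 0.003 and Cox5a -0.113. Leaving out 1 array turned the sign in 9 genes, with ranges of Cd55 -0.177 to 0.745, Avil -1.027 to 0.458, Ntrk2 -0.172 to 0.013, Ntrk3 -0.243 to 0.512, Ngfr -0.377 to 0.193, Sort1 -0.085 to 0.045, Gfra2 -0.18 to 0.005, Cntfr -0.09 to 0.03 and Alas2 -0.812 to 0.048. The neutrophil list's median was -1.287 under the stricter filter, which tests fewer genes.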

Other observations

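Beyond the lists, chosen here after their values were seen, several genes differed between the arms by about 2-fold or more without a call. The neutrophil defensins RatNP-3b (-1.94 ± 0.69, adjusted p = 0.384) and Defa5 (-1.57 ± 0.48, adjusted p = 0.319) were lower in tube alone; RatNP-3b had 6.34, 6.13 and 6.59 against 6.86, 9.28 and 8.75, so that lesion control replicates 2 and 3 were high. Depp1, a FOXO target, had 7.89, 8.05 and 7.78 against 8.71, 9.46 and 9.03 (-1.16 ± 0.31, adjusted p = 0.238). Slfn4 was lower by -1.28 ± 0.43 (adjusted p = 0.363), with its highest value, 10.96, on lesion control replicate 3. The cartilage gene Cnmd had 7.29, 6.37 and 6.40 against 7.68, 7.58 and 7.73 (-0.98 ± 0.34, adjusted p = 0.377). Fcrla, a B cell protein, had 7.37, 10.61 and 9.57 against 7.30, 7.42 and 7.83 (1.67 ± 0.45, adjusted p = 0.265), so that tube alone replicate 1 was inside the lesion control range. Loxl2, a collagen cross-linking enzyme, had 6.70, 6.67 and 6.06 against 5.20, 5.50 and 5.41 (1.11 ± 0.31, adjusted p = 0.276) without overlap.

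Of 11479 genes tested, 36 had tube alone replicates 1 and 2 both 0.7 or more above the other 4 arrays, tube alone replicate 3 included. In 5 genes both lay as far below. Zbtb41 had 7.22, 7.09 and 5.47 in tube alone and 5.40, 4.98 and 5.36 in lesion control, and Cpne3 had 8.12, 7.94 and 6.51 against 6.47, 6.29 and 6.07. The circadian nuclear receptor Rora had 7.72, 7.78 and 5.41 against 6.31, 6.47 and 6.45. For the 36 genes the median over genes was at most 7.78 on these 4 arrays and at least 8.82 on tube alone replicates 1 and 2. That split was fixed by how the 36 genes were chosen. Of 161 other cord arrays 9 were at or below 7.78, and the median over the 161 was 8.46. Of those 9, 5 were of day 30, and 3 of these 5 were the lesion control arrays of the lesion segment. Whether day 30 was over-represented among the 9 was not tested.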
